A study of Homo sapiens with 6 samples.

Results

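The genes described here are PEG10, its divergent neighbour SGCE, and 8 markers of neuroendocrine differentiation (ENO2, CHGA, CHGB, SYP, NCAM1, INSM1, ONECUT2 and SOX2), taken by symbol from a table of raw read counts per gene. Of the 10 genes named, 7 had a row among the 31413 genes of the table, and 4 of those (PEG10, ENO2, SYP and ONECUT2) carried enough reads to be compared. SGCE, NCAM1 and SOX2 were too low to judge, and CHGA, CHGB and INSM1, which had no row, were not analysed here. The genes were selected on their read counts in these same 6 libraries, shNSD2 against shCTR, so their own differences are given as a description, with no test.

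RNA was sequenced from C42 cells (C4-2), a castration-resistant derivative of the LNCaP prostate cancer line. The cells carried an shRNA against NSD2 (shNSD2, also labelled shWHSC1) or a control shRNA (shCTR), and both groups grew in RPMI with serum. Each group held 3 libraries, numbered 1, 2 and 3 for shNSD2 and 1, 2 and 4 for shCTR. One parental line was used, the labels name 1 hairpin label for the knockdown, and separate cultures are not mentioned. Spread within a group, and any p-value resting on it, may therefore be technical.

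Total counts were 19448983 to 20462197 in shNSD2 libraries and 19412896 to 20665494 in shCTR libraries. A floor of 3 counts corresponded to 0.145 to 0.156 CPM (counts scaled to library size by TMM), which covers counting error only. NSD2, the targeted gene, a histone H3 lysine 36 dimethyltransferase, averaged 87.1 ± 2.28 CPM in shNSD2 and 214.0 ± 12.1 CPM in shCTR (SD, n = 3 each), 40.7% of the control level (edgeR quasi-likelihood test, adjusted p = 8.03e-05; exact two-sided permutation test p = 0.1, the smallest that 3 against 3 libraries allow). Of 17160 genes tested, 30.7% were called changed at an adjusted p under 0.05, 15.5% higher and 15.2% lower, which is the background for the counts of called genes with all 6 libraries. Counts with a library left out have another background. When shNSD2 1, 2 or 3 was left out, the share called over all genes was 16.8%, 17.2% or 13.8%. When shCTR 1, 2 or 4 was left out, it was 18.4%, 14.9% or 46.5%.

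PEG10 is an imprinted gene that descends from a retrotransposon and is read from the paternal allele, in common with SGCE, which encodes epsilon-sarcoglycan and starts from the same promoter region on the opposite strand. PEG10 protein retains a Gag-like part and, by a ribosomal frameshift, a Pol-like part, and it is known for roles in placenta formation and, in prostate cancer, for high levels in neuroendocrine tumours, where E2F factors have been described as activators of it. Neuroendocrine prostate cancer is a form in which cells lose luminal features and take up secretory and neuronal genes. Its usual markers are chromogranins (CHGA, CHGB), synaptophysin (SYP), neuron-specific enolase (ENO2), the adhesion molecule NCAM1 (CD56) and the transcription factors INSM1, ONECUT2 and SOX2.

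The frameshift of PEG10 takes place on the heptamer GGGAAAC, which occurred 1 time in the longest coding transcript of GENCODE 29 (6618 bases). The stretch is shown because both protein forms are read from the same RNA across this site, so that read counts per gene do not separate them. It lies at chr7:94664480-94664546 of GRCh38 on the plus strand, 5′ to 3′, with the heptamer in capitals and 30 bases on either side.
PEG10 frameshift site: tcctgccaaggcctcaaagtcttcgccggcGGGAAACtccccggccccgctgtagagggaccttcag
The heptamer begins 22 bases before the annotated end of the first reading frame, which holds 975 coding bases, stop codon not counted, and 3 annotated transcripts carry a second frame that ends at position 94665679.

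PEG10 (ENSG00000242265, chromosome 7 of GRCh38, 94656325 to 94669695) had the largest difference among the 4 measured genes. It was at 1.89, 1.59 and 0.921 CPM in shNSD2 libraries 1, 2 and 3, against 12.1, 13.0 and 7.04 CPM in shCTR libraries 1, 2 and 4. Every shNSD2 library lay below every shCTR library, and the lowest control was 3.73-fold above the highest knockdown library. In bulk RNA, fewer cells with the transcript and less of it per cell cannot be told apart. The raw counts behind these levels were 37, 31 and 19 in shNSD2 and 247, 269 and 135 in shCTR.

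The mean of PEG10 was 1.47 ± 0.495 CPM in shNSD2 and 10.7 ± 3.20 CPM in shCTR (SD, n = 3 each), 13.7% of the control level. The fitted log2 fold change was -2.87 (SE 0.287), a level 7.31-fold lower. Among 17160 genes tested it ranked 26, counted from the most negative log2 fold change. The controls were uneven, shCTR 4 holding 56.2% of the mean of shCTR 1 and 2, and the log2 fold change was -3.10 without shCTR 4 and between -3.09 and -2.62 with any other library left out.

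SGCE (ENSG00000127990, chromosome 7, 94524204 to 94656572, minus strand) had 6, 8 and 4 counts in shNSD2 libraries 1, 2 and 3, against 23, 17 and 7 counts in shCTR libraries 1, 2 and 4. The groups overlapped, because shCTR 4 lay below shNSD2 2. In sum, 18 counts were found in shNSD2 libraries and 47 in shCTR libraries, and SGCE was removed by the low-count filter, which asks for about 10 counts in 3 libraries. In GENCODE 29 the exons of PEG10 and SGCE share 219 bases on opposite strands, and with no strand setting given in the sources used here, reads from that stretch cannot be told apart.

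**Figure D1:**
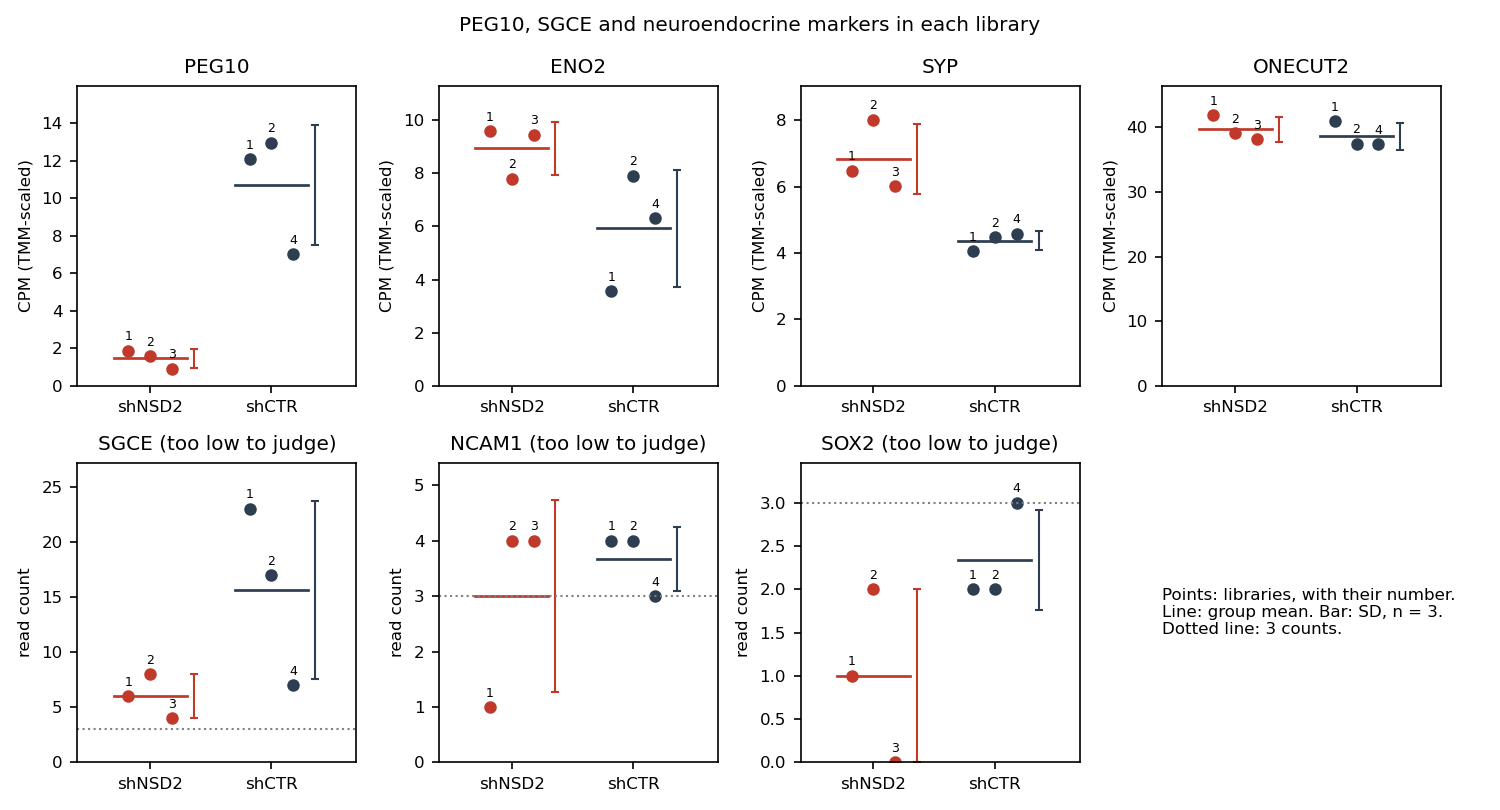
Levels of the 7 genes with a row, shNSD2 libraries left and shCTR libraries right in each panel, as TMM-scaled CPM (top) or raw read counts (bottom), with group means and SD (n = 3). PEG10 was at 0.921 to 1.89 CPM in shNSD2 and 7.04 to 13.0 CPM in shCTR, SYP was separated the other way, ENO2 and ONECUT2 overlapped, and SGCE, NCAM1 and SOX2 stood at 0 to 23 counts.

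Genes beside PEG10 and SGCE had smaller differences. Of 18 listed neighbours at 7q21.3, 8 were tested, of which 1 rose and 3 fell, with a median log2 fold change of -0.12 against 0.01 over all genes tested. The shares called over all genes tested were 15.5% higher and 15.2% lower. PPP1R9A, which encodes the actin-binding protein neurabin and lies in the same imprinted domain, was at 9.03, 8.11 and 7.18 CPM in shNSD2 and 16.1, 16.9 and 11.6 CPM in shCTR, and fell by 0.88 on the log2 scale (SE 0.158; edgeR, adjusted p = 0.00396). CASD1, a sialic acid O-acetyltransferase gene whose annotated span overlaps that of SGCE, averaged 38.7 ± 1.77 CPM in shNSD2 and 53.0 ± 10.6 CPM in shCTR (SD, n = 3), with shCTR 4 at 43.1 CPM (log2 fold change -0.46, edgeR adjusted p = 0.0244). SLC25A13, the mitochondrial aspartate-glutamate carrier gene, fell by 0.29 and SEM1, a proteasome lid subunit gene, rose by 0.57 on the log2 scale (adjusted p by edgeR = 0.0233 and 0.0307).

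Of these 4 calls, only that of PPP1R9A was kept whichever library was left out. Those of CASD1 and SEM1 were lost without any library but shCTR 4 (adjusted p = 0.053 to 0.122), and that of SLC25A13 without any shNSD2 library or shCTR 2 (adjusted p = 0.0552 to 0.103). The counts of higher and lower neighbours were therefore 0 and 1 in 4 of the edgeR fits with a library left out, 0 and 2 without shCTR 1, and 2 and 4 without shCTR 4. Where edgeR called 0 higher, 1 or 2 neighbours were higher at an unadjusted p under 0.05. Within 3 Mb of the start of PEG10, 23 other genes were tested and their log2 fold changes ran from -0.88 to 0.57, against -2.87 for PEG10. SGCE, removed by the low-count filter, is not among them.

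**Figure D2:**
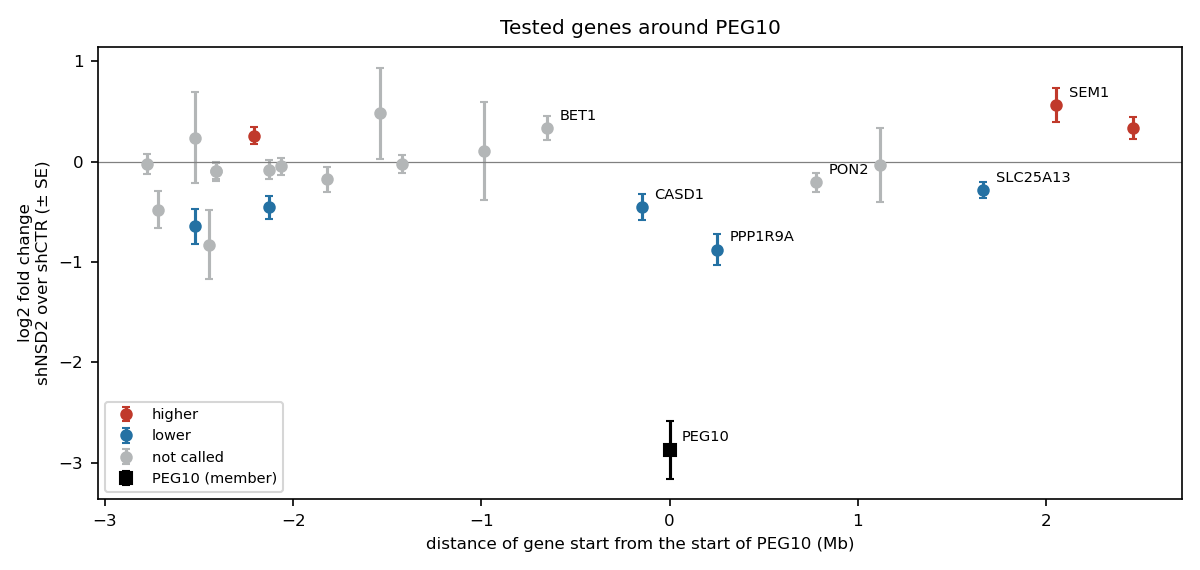
Log2 fold change (shNSD2 over shCTR, ± SE) of the genes tested within 3 Mb of PEG10, by distance of the gene start from the start of PEG10 in Mb. The 23 other genes lay between -0.88 (PPP1R9A) and 0.57 (SEM1), and PEG10 stood apart at -2.87. SGCE, with 18 counts in shNSD2 and 47 in shCTR libraries, was below the low-count filter and is not drawn.

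Genes related to PEG10 by descent from Gag sequences moved in both directions. Of 23 listed, 11 were tested, of which 3 rose and 2 fell (median log2 fold change 0.20), where 30.7% of all genes tested were called. PNMA6A, of the paraneoplastic Ma antigen family, averaged 5.56 ± 0.416 CPM in shNSD2 and 2.29 ± 0.471 CPM in shCTR (SD, n = 3; log2 fold change 1.28, edgeR adjusted p = 0.00174). RTL8C and RTL8A, X-linked genes with a Gag-like product, rose by 0.43 and 0.50 on the log2 scale, and RTL6 fell by 0.53 (edgeR adjusted p = 0.015, 0.0206 and 0.0118). The RTL8 genes and the PNMA6 genes are near-identical copies, so their reads may be split among them.

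Among the Gag-derived genes, PNMA6A was called in every edgeR fit with a library left out. RTL6 lost its call without shNSD2 3 or shCTR 2, RTL8C without shNSD2 2, shNSD2 3 or shCTR 2, and RTL8A without shNSD2 1, shNSD2 3, shCTR 1 or shCTR 2 (adjusted p = 0.0501 to 0.0907). The higher and lower counts were 1 and 0 by edgeR without shNSD2 3 or shCTR 2 (where 2 were lower at an unadjusted p under 0.05), 2 and 1 without shNSD2 1, shNSD2 2 or shCTR 1, and 5 and 2 without shCTR 4.

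Of 29 other imprinted genes listed, 20 were tested, of which 4 rose and 8 fell (median log2 fold change -0.14). Among all genes tested, 15.5% were called higher and 15.2% lower. PLAGL1, an imprinted zinc-finger transcription factor gene, was at 0.459, 0.257 and 0.242 CPM in shNSD2 and 6.65, 5.35 and 4.64 CPM in shCTR, a log2 fold change of -4.10 (SE 0.283; edgeR, adjusted p = 8.03e-05). The shNSD2 values stand only a little above the 3-count floor, so the size of that fall is loosely set. The imprinted CDK inhibitor gene CDKN1C moved the other way, with 2.24 ± 0.387 CPM in shNSD2 and 0.728 ± 0.237 CPM in shCTR (SD, n = 3; log2 fold change 1.61, edgeR adjusted p = 0.00346). SLC22A18, a transporter gene of the same 11p15 cluster as CDKN1C, rose by 0.76 and SNURF fell by 1.13 on the log2 scale (adjusted p by edgeR = 0.00104 and 0.0051), and SNURF shares its transcript with SNRPN, so its reads may be split. The higher and lower counts were 3 and 2 without shNSD2 3, 4 and 2 without shCTR 1, 4 and 3 without shNSD2 1, 5 and 4 without shNSD2 2, 3 and 3 without shCTR 2, and 7 and 10 without shCTR 4. At an unadjusted p under 0.05 by edgeR, 4 to 7 were higher and 8 to 10 lower in these fits.

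SYP was higher in every shNSD2 library, ENO2 had a higher mean with overlapping groups, and ONECUT2 was level. Of the 4 members that passed the filter, 2 (PEG10 and SYP) had no overlap of CPM between groups, where 46.8% of all tested genes had none, 24% with shNSD2 higher and 22.8% with shNSD2 lower. RefSeq promoters (GRCh38.p14, 250 bases before to 50 after the gene start) were at hand for 5 of the 10 genes, and those of ENO2 and SYP are shown because these markers had the higher means in shNSD2. Capitals mark the GC box GGGCGG on either strand, the only one found in the ENO2 and SYP windows of 4 motifs searched on both strands. The others were the TATA box TATAAA and the left and right sides of RE1, the element bound by the neuronal repressor REST, as TTCAGCACC and GGACAGC, none of which overlaps another.
ENO2 promoter, chr12:6914330-6914629, plus strand: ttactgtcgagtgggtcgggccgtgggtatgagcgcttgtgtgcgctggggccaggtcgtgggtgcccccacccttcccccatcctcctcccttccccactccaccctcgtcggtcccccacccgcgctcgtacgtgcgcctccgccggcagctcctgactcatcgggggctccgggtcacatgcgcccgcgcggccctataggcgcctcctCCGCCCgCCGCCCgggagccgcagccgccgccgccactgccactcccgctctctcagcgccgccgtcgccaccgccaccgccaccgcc
SYP promoter, chrX:49200144-49200443, minus strand: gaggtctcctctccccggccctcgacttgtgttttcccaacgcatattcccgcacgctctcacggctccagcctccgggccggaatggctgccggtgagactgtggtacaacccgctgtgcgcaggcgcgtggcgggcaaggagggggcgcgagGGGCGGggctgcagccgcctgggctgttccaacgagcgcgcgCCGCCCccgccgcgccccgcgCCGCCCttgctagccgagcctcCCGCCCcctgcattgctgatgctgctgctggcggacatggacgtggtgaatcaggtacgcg
The ENO2 window held 2 GC boxes and the SYP window 4, while the windows of ONECUT2, CHGA and SOX2 held 2, 1 and 1, and 45% of all 35116 promoter windows held at least 1. The ONECUT2 window also held 1 right side of RE1. Over all windows, TATAAA was found in 11.5%, the left RE1 side in 0.376% and the right side in 6.03%. G and C made up 75% of the ENO2 window, 71.3% of the SYP window and 68% of the ONECUT2 window, against a median of 58.7% over all windows.

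SYP (ENSG00000102003, chromosome X, 49187804 to 49200259) encodes synaptophysin, a membrane protein of small secretory vesicles. It was at 6.48, 8.01 and 6.01 CPM in shNSD2 libraries 1, 2 and 3, against 4.06, 4.48 and 4.59 CPM in shCTR libraries 1, 2 and 4. The lowest knockdown library lay above the highest control, and shCTR 4 lay close to the other controls. The means were 6.83 ± 1.05 CPM in shNSD2 and 4.38 ± 0.280 CPM in shCTR (SD, n = 3 each), with a fitted log2 fold change of 0.64 (SE 0.156), and the value ran from 0.52 without shNSD2 2 to 0.72 without shNSD2 3. The antisense gene SYP-AS1, which shares 68 exon bases with SYP, had at most 1 count in any library.

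ENO2 (ENSG00000111674, chromosome 12, 6913745 to 6923698) encodes gamma-enolase, the neuronal form of the glycolytic enzyme. It was at 9.59, 7.81 and 9.46 CPM in shNSD2 libraries 1, 2 and 3, against 3.57, 7.90 and 6.31 CPM in shCTR libraries 1, 2 and 4. The groups touched, shCTR 2 lying above shNSD2 2, and the highest control was 2.21-fold above the lowest. The means were 8.95 ± 0.993 CPM in shNSD2 and 5.93 ± 2.19 CPM in shCTR (SD, n = 3 each), with a fitted log2 fold change of 0.59 (SE 0.233). The size rested on the controls, with 0.32 without shCTR 1 and 0.86 without shCTR 2.

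LRRC23, a cilia and flagella gene whose annotated span runs into that of ENO2 on the same strand with no shared exon bases, was at 13.8, 10.5 and 12.7 CPM in shNSD2 and 4.40, 6.02 and 8.13 CPM in shCTR. It rose by 1.0 on the log2 scale (SE 0.198; edgeR, adjusted p = 0.00575). Both genes were highest in library 1 and lowest in library 2 of shNSD2, and both were lowest in shCTR 1 among the controls. LRRC23 was highest in shCTR 4 among the controls and ENO2 in shCTR 2. A link between the 2 genes was not tested.

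ONECUT2 (ENSG00000119547, chromosome 18, 57435685 to 57491297), a homeodomain factor described as a driver of advanced prostate cancer, was at 41.9, 39.1 and 38.2 CPM in shNSD2 libraries 1, 2 and 3, against 40.9, 37.4 and 37.3 CPM in shCTR libraries 1, 2 and 4. The groups overlapped throughout. The means were 39.7 ± 1.93 CPM in shNSD2 and 38.6 ± 2.02 CPM in shCTR (SD, n = 3 each), with a fitted log2 fold change of 0.04 (SE 0.0846), with 0.01 to 0.08 whichever library was left out. With 716 to 836 counts a library, it was the best covered of the 7 members with a row.

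NCAM1 (ENSG00000149294, chromosome 11, 112961247 to 113278436) had 1, 4 and 4 counts in shNSD2 libraries 1, 2 and 3, against 4, 4 and 3 counts in shCTR libraries 1, 2 and 4. SOX2 (ENSG00000181449, chromosome 3, 181711924 to 181714436), a pluripotency and neural progenitor factor, had 1, 2 and 0 counts in shNSD2, against 2, 2 and 3 counts in shCTR. Both sat at or near the 3-count floor in each library, so a difference between groups was not detectable at this depth. SOX2-OT, the noncoding gene that spans SOX2 on the same strand, had at most 7 counts in a library and was below the filter.

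Levels can be set side by side only per length, here as CPM per kb of merged annotated exon, which understates genes with long unused exons. In shNSD2 the order was ONECUT2 (2.45), ENO2 (2.09), SYP (1.31) and PEG10 (0.219), and in shCTR it was ONECUT2 (2.37), PEG10 (1.60), ENO2 (1.38) and SYP (0.839). In shCTR, PEG10 and ENO2 differed by less than their SDs of 0.478 and 0.512, whereas in shNSD2 PEG10 was the lowest of the 4. SOX2, SGCE and NCAM1 were at 0.0204, 0.0145 and 0.0118 CPM per kb in shNSD2 and at 0.0465, 0.0369 and 0.0143 CPM per kb in shCTR.

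ENO1 and NCAM2, close relatives of ENO2 and NCAM1, were far more abundant per kb than the markers. Per kb, ENO1, the ubiquitous alpha-enolase gene, was at 299 ± 10.7 CPM in shNSD2 and 284 ± 49.6 CPM in shCTR, and NCAM2, the paralog of NCAM1, was at 30.5 ± 1.03 CPM in shNSD2 and 36.5 ± 2.95 CPM in shCTR (SD, n = 3). Neither gene, both named after their values were seen, was called by edgeR (log2 fold changes 0.08 and -0.26, adjusted p = 0.689 and 0.0610). Of 16 close relatives listed, 7 were tested, of which 2 rose and 1 fell (median log2 fold change 0.08), where 30.7% of all genes tested were called.

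The synaptic vesicle gene SYNGR3 averaged 10.9 ± 1.42 CPM in shNSD2 and 5.41 ± 0.525 CPM in shCTR (SD, n = 3; log2 fold change 1.0, edgeR adjusted p = 0.00156). SYPL1, the widely expressed relative of synaptophysin, fell by 0.44 and SYNGR1 rose by 0.33 on the log2 scale (adjusted p by edgeR = 0.0177 and 0.0431). SYPL1 lost its call without shNSD2 1 or shNSD2 3 and SYNGR1 without any library but shCTR 1 (adjusted p = 0.0534 to 0.124), with DESeq2 at 1 higher and 2 lower. Without shNSD2 1 or shNSD2 3, edgeR called 1 higher and 0 lower (2 and 1 lower at an unadjusted p under 0.05), without shNSD2 2 or shCTR 2 it called 1 and 1, and without shCTR 4 it called 1 and 2.

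**Figure D3:**
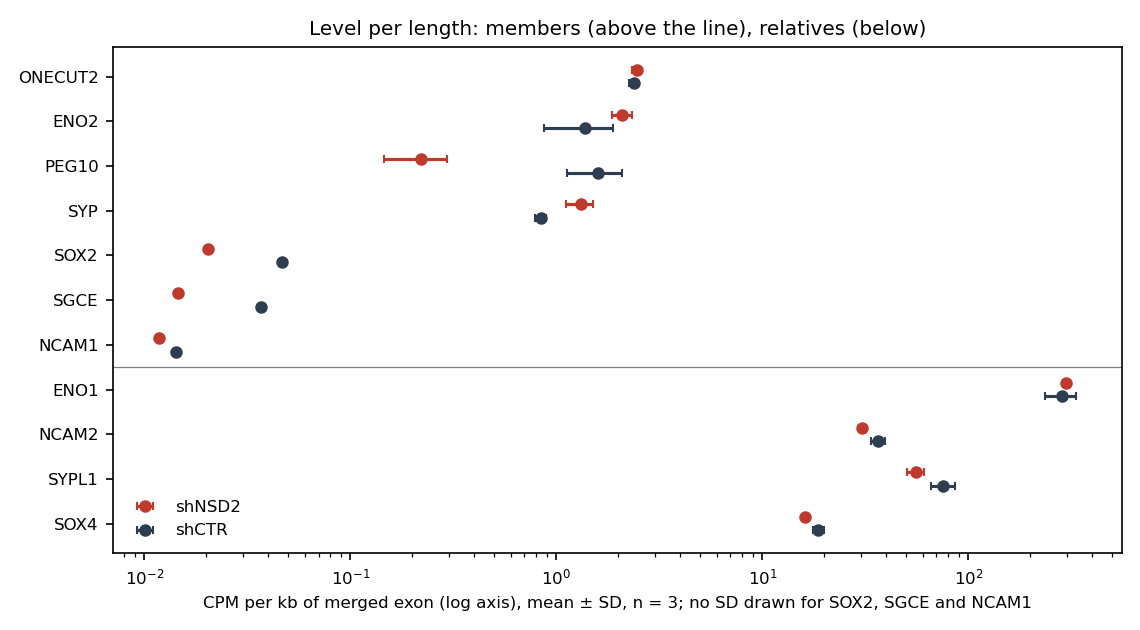
Mean CPM per kb of merged exon (log axis, ± SD, n = 3, no SD for the 3 genes too low to judge) for the 7 members with a row (above the line) and 4 relatives (below it), shNSD2 in red above shCTR in dark blue. PEG10 stood below the other measured markers in shNSD2 (0.219) and among them in shCTR (1.60), while ENO1 and NCAM2 stood above all of them.

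Beyond the named markers, genes of the neuroendocrine and neuronal programme were split. In 5 lists that together held 102 genes, 46 were tested, of which 15 rose and 10 fell, with a median log2 fold change of 0.19 against 0.01 over all genes tested. The share called was 54.3%, against 30.7% over all genes. The lists were written from general knowledge with earlier results of these data known, and 56 of the genes had no row or too few reads.

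Most neuroendocrine transcription factors were not measurable. Of 20 listed, 7 were tested, of which 1 rose and 1 fell, 6 were below the filter and 7 had no row. The 2 called of 7 stand beside 30.7% called over all genes tested. HES6, a HES family factor that promotes neurogenesis, was at 101, 76.7 and 87.0 CPM in shNSD2 and 38.8, 60.6 and 48.7 CPM in shCTR, and rose by 0.84 on the log2 scale (SE 0.154; edgeR, adjusted p = 0.00428). SOX11, a neural SoxC factor, averaged 4.15 ± 0.787 CPM in shNSD2 and 7.56 ± 0.819 CPM in shCTR (SD, n = 3), and fell by 0.86 (SE 0.168; edgeR, adjusted p = 0.00522). For both genes the groups did not overlap, and without shCTR 4 the counts were 3 higher and 1 lower.

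Genes of dense-core granules and prohormone processing moved in both directions, 5 of 12 tested (20 listed) rising and 4 falling, against 30.7% called over all genes. PCSK1N, an inhibitor of prohormone convertase, was at 9.13 ± 0.813 CPM in shNSD2 and 5.35 ± 0.230 CPM in shCTR, and RAB3A, a GTPase of regulated secretion, was at 45.9 ± 1.41 CPM in shNSD2 and 28.0 ± 6.17 CPM in shCTR (SD, n = 3; edgeR adjusted p = 0.00301 and 0.0046). CPE, which encodes carboxypeptidase E of hormone maturation, fell by 0.53, and CADPS2, a priming factor of granule release, by 0.66 (edgeR adjusted p = 0.00446 and 0.00522). The counts were 3 higher and 2 lower without shNSD2 1, 3 and 3 without shNSD2 3, and 4 and 2 without shNSD2 2 or shCTR 2. The granins SCG2, SCG3 and SCG5, named after their values were seen, had at most 8 counts in a library. VGF, of the same list and also named after its values were seen, was well covered and not called (edgeR adjusted p = 0.297). It averaged 23.2 ± 3.21 CPM in shNSD2 and 20.2 ± 3.57 CPM in shCTR (SD, n = 3).

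Of 16 peptide hormone genes listed, 6 were tested, of which 1 rose and 1 fell (30.7% of all genes tested were called). GCG, the glucagon precursor gene, was at 0.714, 1.49 and 1.16 CPM in shNSD2 and 26.1, 14.5 and 4.90 CPM in shCTR, so that the controls spread widely without touching the knockdown libraries (log2 fold change -3.75, edgeR adjusted p = 0.00191, and -3.12 without shCTR 1). CALCA, the calcitonin gene, was at 1.53 ± 0.365 CPM in shNSD2 and 0.668 ± 0.191 CPM in shCTR (SD, n = 3; log2 fold change 1.20, edgeR adjusted p = 0.0144), a call lost without shNSD2 3 (adjusted p = 0.0707) or shCTR 2 (adjusted p = 0.0672), where edgeR called 0 higher and 1 was higher at an unadjusted p under 0.05.

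Synaptic vesicle and exocytosis genes held 4 higher and 1 lower of 10 tested (21 listed), against 30.7% called over all genes tested. UNC13A, a vesicle priming factor, rose by 0.99, SYN2, which encodes synapsin II, by 1.36, and the vesicle calcium sensor gene SYT5 by 2.05 (edgeR adjusted p = 0.00984, 0.00751 and 0.00446). SYT5 was low, at 1.32 ± 0.127 CPM in shNSD2 and 0.310 ± 0.191 CPM in shCTR (SD, n = 3), with shCTR 4 below the 3-count floor. The 4 higher counts held in each of the 6 fits with a library left out, and lower ones numbered 3 without shCTR 4, 1 without shNSD2 2 and, by edgeR, 0 without any other library (1 at an unadjusted p under 0.05).

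Among neuronal adhesion, cytoskeleton and RNA-binding genes, 4 of 11 tested (25 listed) rose and 3 fell, against 30.7% called over all genes tested. NOVA1, a neuronal splicing factor, averaged 23.9 ± 2.63 CPM in shNSD2 and 9.64 ± 3.00 CPM in shCTR (SD, n = 3), and rose by 1.31 on the log2 scale (SE 0.192; edgeR, adjusted p = 0.00179). MAPT, which encodes the microtubule protein tau, rose by 0.96, while MAP2, another neuronal microtubule protein gene, fell by 1.06 (edgeR adjusted p = 0.00323 and 0.00367). ST8SIA4, the enzyme that adds polysialic acid to NCAM1, was at 0.583 ± 0.211 CPM in shNSD2 and 2.37 ± 0.112 CPM in shCTR (SD, n = 3; log2 fold change -2.00, edgeR adjusted p = 0.00132). Without shCTR 2 the counts were 2 higher and 3 lower by edgeR, with 4 higher and 3 lower at an unadjusted p under 0.05.

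REST, the repressor of neuronal genes in non-neuronal cells, was at 59.7, 64.1 and 58.2 CPM in shNSD2 and 75.3, 76.3 and 63.2 CPM in shCTR, with an overlap at shCTR 4, and was not called by edgeR (log2 fold change -0.24, adjusted p = 0.0773; named after its values were seen). Of 18 tested genes of the REST complex and its antagonists (19 listed), 2 rose and 2 fell. That is 4 called of 18, where 30.7% of all genes tested were called. The corepressor gene RCOR1 was at 54.5 ± 5.67 CPM in shNSD2 and 72.7 ± 3.93 CPM in shCTR (SD, n = 3; log2 fold change -0.42, edgeR adjusted p = 0.0108). HMG20B and PHF21A, subunits of the LSD1 complex that holds RCOR1, rose by 0.39 and 0.28, and SIN3A, a scaffold of histone deacetylases, fell by 0.25 on the log2 scale (adjusted p by edgeR = 0.0133, 0.0267 and 0.0472).

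These calls in the REST list depended on single libraries and on settings. RCOR1 and HMG20B lost theirs without shNSD2 3 (adjusted p = 0.0566 and 0.0638), and PHF21A and SIN3A without any library but shCTR 4 (adjusted p = 0.058 to 0.184). With no low-count filter, the adjusted p by edgeR was 0.0569 for PHF21A and 0.0985 for SIN3A, and SIN3A also missed the threshold with upper-quartile factors (0.061) and plain library size (0.0507). The higher and lower counts were 1 and 1 without shNSD2 1, shCTR 1 or shCTR 2, 2 and 1 without shNSD2 2, and 4 and 3 without shCTR 4. Without shNSD2 3, edgeR called 0 in either direction, while 5 higher and 1 lower had an unadjusted p under 0.05.

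Regulators described upstream of PEG10 and of lineage change were lower or not called with all 6 libraries. Of 14 tested, 7 fell and 0 rose by edgeR, where 15.2% of all genes tested were called lower and 15.5% higher. The count of higher genes was 0 also by DESeq2, by limma-voom and at an unadjusted p under 0.05. The median log2 fold change was -0.25. E2F1, the S-phase activator, was at 55.9, 63.7 and 61.5 CPM in shNSD2 and 105, 100.2 and 90.5 CPM in shCTR (log2 fold change -0.71, SE 0.0915, edgeR adjusted p = 0.0011). The pocket protein gene RBL1 averaged 23.3 ± 0.823 CPM in shNSD2 and 45.8 ± 4.80 CPM in shCTR (SD, n = 3; log2 fold change -0.97, edgeR adjusted p = 4.18e-04).

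E2F2 fell by 0.77 and the retinoblastoma gene RB1 by 0.54 on the log2 scale (adjusted p by edgeR = 0.0026 and 0.00457). Without shCTR 4 the counts were 2 higher and 8 lower, where 46.5% of all genes tested were called. On libraries 1 and 2 the counts were 2 and 6 with a replicate block and 2 and 7 with no block. Without any other library they were 0 and 6 by edgeR, with 0 higher at an unadjusted p under 0.05.

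Luminal identity genes were expressed in both groups. KLK3, which encodes PSA and was named after its values were seen, was at 5831 CPM in shNSD2 and 6628 CPM in shCTR on average and was not called (edgeR adjusted p = 0.313). Of 13 tested genes of luminal identity, 2 rose and 3 fell (median log2 fold change -0.18). That is 5 called of 13, against 30.7% over all genes tested. KLK2 fell by 0.37 and ACPP, prostatic acid phosphatase, by 0.63 on the log2 scale, while the keratin genes KRT8 and KRT18 rose by 0.41 and 0.48 (edgeR adjusted p = 0.0244, 0.0242, 0.0256 and 0.0332).

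Each of these 4 calls was lost in 3 to 5 of the edgeR fits with a library left out. Without shCTR 2, 0 luminal genes were called by edgeR in either direction, while 4 higher and 4 lower had an unadjusted p under 0.05. The higher and lower counts were 1 and 0 without shNSD2 1 and 0 and 1 without shNSD2 2, shNSD2 3 or shCTR 1, where 2 to 4 genes in each direction had an unadjusted p under 0.05, and 4 and 6 without shCTR 4.

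Markers of leukocytes, stroma, endothelium and basal cells were low or had no row. Of 16 listed, 6 had no row, 6 were below the filter and 4 were tested. Their summed level was 11.7 to 13.0 CPM in shNSD2 libraries and 9.75 to 11.7 CPM in shCTR libraries, most of it from VWF (7.56 ± 0.441 CPM in shNSD2 and 5.61 ± 0.126 CPM in shCTR, SD, n = 3; edgeR adjusted p = 0.0273). The fibrillar collagen gene COL3A1 was at 0.252 ± 0.0928 CPM in shNSD2 and 1.20 ± 0.214 CPM in shCTR (SD, n = 3; edgeR adjusted p = 0.00217), and LYZ, LUM and PECAM1, named after their values were seen, had at most 3 counts in a library. The call of VWF was lost without any library but shCTR 4 (adjusted p = 0.055 to 0.112), which left 1 lower gene.

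**Figure D4:**
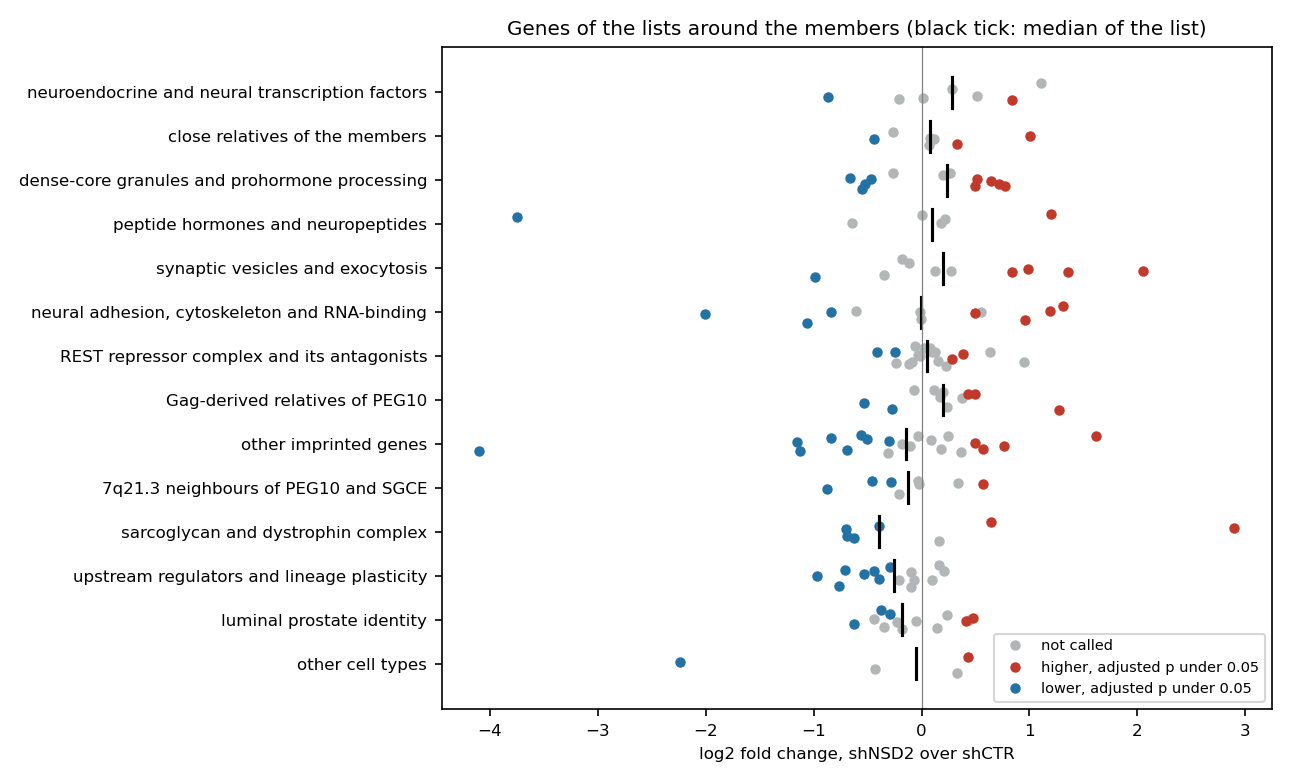
Log2 fold change (shNSD2 over shCTR) of each tested gene of the 14 lists, 1 row a list, with genes called higher in red, called lower in blue, not called in grey, and the median as a black tick. The medians ran from -0.39 to 0.28, and in each list of neuroendocrine or neuronal genes some genes rose and others fell.

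Genes whose profile over the 6 libraries was most like that of PEG10 were found by the root mean square difference of centred log2 CPM, among 10431 other protein-coding genes that averaged 5 CPM or more. The closest were RASSF8 (0.291), AK5 (0.422), S1PR3 (0.443), EFNB2 (0.461) and FRAS1 (0.480). RASSF8, a Ras-association domain gene, was at 1.58, 1.13 and 1.12 CPM in shNSD2 and 13.3, 9.35 and 7.56 CPM in shCTR, again with the lowest control in shCTR 4. AK5, an adenylate kinase gene known from brain, was at 1.64 ± 0.291 CPM in shNSD2 and 10.8 ± 4.25 CPM in shCTR (SD, n = 3). The likeness follows from the group difference and the spread of the controls over only 6 libraries, and it is a description.

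**Figure D5:**
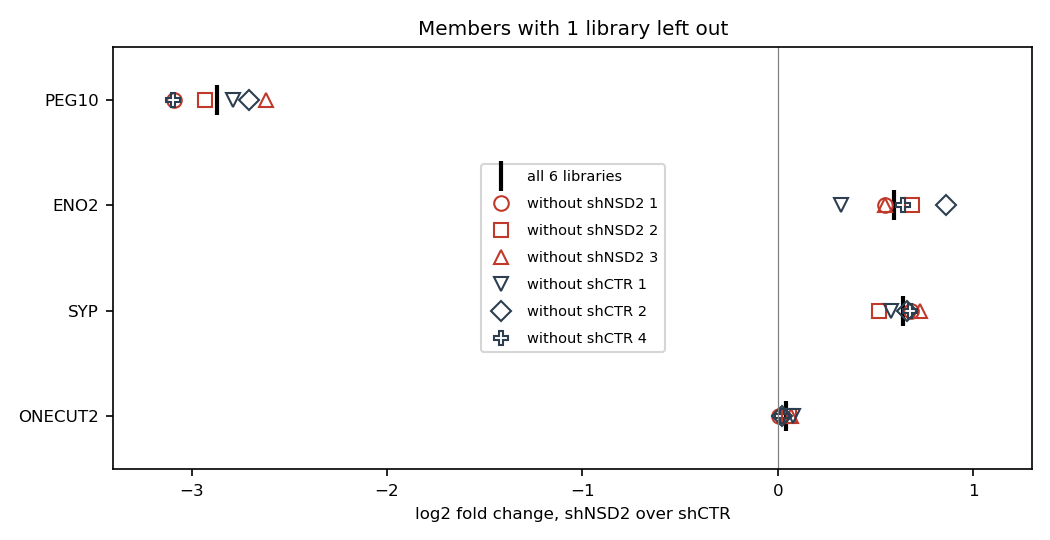
Log2 fold change (shNSD2 over shCTR) of the 4 measured genes with all 6 libraries (black bar) and with each library left out (red for shNSD2, dark blue for shCTR). PEG10 stayed between -3.10 and -2.62, SYP between 0.52 and 0.72, ENO2 between 0.32 and 0.86, and ONECUT2 between 0.01 and 0.08.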

How the data were processed

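The deposited table holds raw read counts per gene for 6 libraries, which the authors did not normalize, judged from whole numbers of unequal totals. Per the submitters' processing notes, CASAVA 1.8.2, STAR 2.6.0a and GRCh38 were used, and per the labels' protocols the library kit was a KAPA mRNA kit. How reads were assigned to genes (program, gene models, strand, any row filter) is not given in the sources used here. All columns were used.

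Counts were tested with edgeR 4.0.16 (R 4.3.3): filterByExpr by group (17160 genes kept, 14253 removed), TMM, quasi-likelihood test without covariates, Benjamini-Hochberg adjustment over all genes tested, called at an adjusted p under 0.05. SE was derived from the log2 fold change and F. The fit was also run on counts simulated with a common dispersion for all genes and independent libraries. That setting is simpler than these data, so nothing about the calls here is drawn from it. GENCODE 29 gave positions for 31313 gene identifiers (100 unmatched).

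The members and lists were chosen with earlier results of these data known. Named genes were NSD2, the members, genes overlapping them, up to 4 called genes of smallest p from each of 14 lists, and the 5 profiles closest to PEG10, while others are marked. Lists are described by counts and medians. Alternatives were DESeq2 1.42.0, limma-voom (limma 3.58.1), other scalings and filters, a replicate block, and each library left out. Some genes are not reported here, though they stay in the counts and medians of their lists.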

Additional observations from a re-analysis of the deposited data

How the results depend on the processing

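Of the 53 named genes counted below, none changed direction. The balance of higher against lower calls turned in 4 lists. Close relatives (2 higher, 1 lower) had 1 and 2 by DESeq2, on libraries 1 and 2 with no block and without shCTR 4. Neural adhesion (4 and 3) had 2 and 3 without shCTR 2. Imprinted genes (4 and 8) had 4 and 3 without shNSD2 1, 5 and 4 without shNSD2 2, 3 and 2 without shNSD2 3, and 4 and 2 without shCTR 1. Luminal genes (2 and 3) had 1 and 0 without shNSD2 1. At an unadjusted p under 0.05 by edgeR, the neural adhesion, imprinted and luminal lists kept their balance in those fits. Imprinted genes then had 5 and 8, 6 and 8, 4 and 9, and 6 and 9, in the same order of fits. Neural adhesion then had 4 and 3, and luminal genes 2 and 4. The 53 named genes counted here were called list genes, the 5 profiles closest to PEG10 and LRRC23, without NSD2 and the members. All were called with all 6 libraries, and the list genes were picked for that. Of these 53, 35 were called in every edgeR fit with a library left out, and 18 lost a call without at least 1 library. The number of genes called higher ran from 1116 to 4251 and lower from 1320 to 4011, lowest without shNSD2 3 and highest without shCTR 4. Called list members ran, with a library left out, from 2 to 4 for transcription factors, 1 to 3 for close relatives, 5 to 10 for granules, 1 to 2 for peptide hormones, 4 to 7 for synaptic vesicles, 5 to 8 for neural adhesion, 0 to 7 for the REST complex (0 by edgeR without shNSD2 3, where 6 had an unadjusted p under 0.05), 1 to 7 for Gag-derived genes, 5 to 17 for imprinted genes, 1 to 6 for 7q21.3 neighbours, 5 to 6 for the sarcoglycan complex, 6 to 10 for upstream regulators, 0 to 10 for luminal genes (0 without shCTR 2, where 8 had an unadjusted p under 0.05) and 1 to 2 for other cell types. Leaving out a library also leaves fewer samples, and the cause of these shifts was not tested otherwise.

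Among other settings, the REST list held 7 calls with a replicate block on libraries 1 and 2 and 9 on those libraries with no block (an alternative chosen after seeing the data), against 4. The luminal list held 8 by DESeq2 and 9 on libraries 1 and 2 with no block, against 5. The other cell types held 1 by DESeq2, with at least 1 CPM in 3 libraries, with the block and without it, against 2. The cause was not tested. The replicate numbers are shared only by libraries 1 and 2. Deviations of same-numbered libraries correlated at 0.04 and -0.18 over 11218 genes, and the labels tie no number to a shared culture or day, so the libraries are treated as unpaired. Across numbers, the correlation was 0.48 for shNSD2 1 with shCTR 2, 0.43 for shNSD2 3 with shCTR 4 and 0.26 for shNSD2 2 with shCTR 1, a description that pairs no samples. The replicate block gave 3189 for genes higher in shNSD2 and 2937 for genes lower in shNSD2, against 3675 and 3380 on the same 4 libraries with no block. Of 4 named genes without a call in the block fit, SYNGR1 and VWF had none on those 4 libraries with no block either (adjusted p by edgeR 0.064 and 0.0513), while SIN3A and SLC25A13 had theirs (0.0906 and 0.062 with the block). Scaling moved the median log2 fold change of all genes to between -0.003 and 0.028. Depth left NCAM1 and SOX2 at or near the floor of 3 counts, and SGCE, at 4 to 23 counts, below the low-count filter.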

Other observations

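SGCE itself was too low to judge, but genes of the sarcoglycan and dystrophin complex, which anchors the cytoskeleton to the matrix and to which SGCE belongs, were measurable in part. Of 16 listed, 7 were tested, of which 2 rose and 4 fell (median log2 fold change -0.39), where 30.7% of all genes tested were called. DAG1, which encodes dystroglycan, was at 319, 316 and 269 CPM in shNSD2 and 585, 498 and 384 CPM in shCTR, and fell by 0.70 on the log2 scale (SE 0.148, edgeR adjusted p = 0.00737). SGCB, which encodes beta-sarcoglycan, averaged 20.8 ± 0.923 CPM in shNSD2 and 32.1 ± 4.57 CPM in shCTR (SD, n = 3; edgeR adjusted p = 0.00379). DTNA, which encodes alpha-dystrobrevin, was at 1.15 ± 0.299 CPM in shNSD2 and 0.152 ± 0.0944 CPM in shCTR (SD, n = 3; log2 fold change 2.90, edgeR adjusted p = 0.00191). The controls of DTNA stood at the 3-count floor, so the size of its rise is loosely set, and it was 3.49 without shCTR 4. Higher genes numbered 2 and lower ones 3 or 4 whichever library was left out.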
